A study of Mus musculus with 28 samples.

Results

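Satellite cells lacking functional SIRT1 were compared with WT satellite cells while both were proliferating in culture, in 4 polyA RNA-seq libraries, 2 of each genotype. These are all the libraries of the deposited table that sets the proliferating KO cells against WT, taken from 18 RNA-seq libraries and 28 samples in the series. The labels list 2 KO and 4 WT libraries of this state, so 2 of the 4 WT libraries enter here, and which labelled replicates they are is not given. WT mice were on a C57Bl/6 background. SIRT1mKO mice (KO below) came from a cross of Pax7cre/+ knock-in mice with mice that carry a floxed exon 4 of Sirt1, so Cre was made where Pax7 is active. All cells were isolated by FACS and grown in Ham's F-10 medium with 20% FBS (fetal bovine serum) and bFGF at 12.5 ng/mL, and neither the age of the mice nor the time in culture is given in the sources used here. Separate animals or cultures are not named by the labels, so the tests measure the spread between these libraries. Whether each library stands for a separate animal or culture is not given.

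Satellite cells are the stem cells of skeletal muscle. They carry the transcription factor Pax7 when at rest, divide as Myf5 and Myod1 positive myoblasts once activated, and turn on Myog as they leave the cell cycle to fuse into fibres. SIRT1 is a deacetylase that needs NAD and acts on histones, among them acetylated lysine 16 of histone H4, and on many other proteins, which ties its activity to the metabolic state of the cell.

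The table numbers the libraries of each genotype 0 and 1, and a library is named here by genotype and this index. Depth was 75564697 to 82450560 fragments per library. Levels are CPM, fragments of a gene scaled to a common library size with TMM factors, and differences are KO against WT on the log2 scale, from a fit over the 4 libraries or as the difference of 2 libraries with the same index. After the filter on low counts, 13963 genes were tested.

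The libraries separated more by index than by genotype. The median size of the log2 difference over all genes was 0.162 between KO and WT at index 1 and 0.255 at index 0. Between the 2 WT libraries it was 0.361, and between the 2 KO libraries 0.410. For 9080 genes (65.0%) the index difference was larger than the genotype difference. Index 0 libraries held more transcript from a list of 22 G2/M genes, with a summed level of 4824 CPM in WT against 4562 CPM in KO against 1805 and 1856 CPM at index 1. Xist, the RNA that coats the inactive X chromosome in female cells, was at 1.06 CPM in WT index 0 and 0.359 CPM in KO index 0 and at 2287 and 1217 CPM in WT against KO index 1. The Y-linked Ddx3y was present in all 4 libraries, at 88.7 and 32.4 CPM in WT against 36.5 and 32.6 CPM in KO (index 0, then index 1, here and below). Eif2s3y, also Y-linked, was at 53.4 and 16.6 CPM in WT against 43.4 and 20.3 CPM in KO. Kdm5d ranged from 13.3 to 32.8 CPM and Uty from 7.11 to 22.9 CPM over the 4 libraries. The sex of the mice is not given in the sources used here, and the part of any of these index differences in the results below was not tested.

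**Figure D1:**
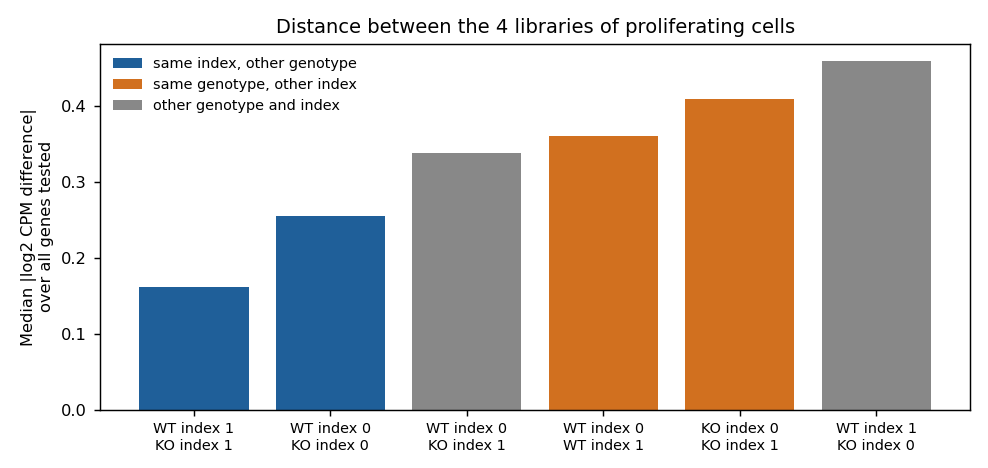
Median size of the log2 CPM difference over the 13963 genes tested (y axis) for each of the 6 pairs of libraries (x axis), as bars coloured by what the 2 libraries share. The 2 pairs that share an index and differ in genotype, at 0.162 and 0.255, lie below the 2 pairs that share a genotype, at 0.361 and 0.410.

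With this spread, 0 of 13963 genes passed an adjusted p of 0.05 by edgeR's quasi-likelihood test, and the lowest adjusted p was 1.00. By the same test 112 genes had an unadjusted p under 0.05, with 39 higher and 73 lower in KO. DESeq2 called 3 genes, all lower in KO, and limma on log2(FPKM + 1) called 0. An exact permutation test of 2 against 2 libraries cannot give a two-sided p below 0.333, so single genes are described here by their level in each library. Both KO libraries lay above both WT libraries for 1654 genes (11.8%) and below both for 1555 genes (11.1%), and genes of either kind are called apart upward or downward below. Counts of such genes in each list are to be read beside these shares. KO differed from WT by at least 2-fold at both indices for 72 genes upward (0.516%) and 100 genes downward (0.716%). The sign was the same at both indices for 8637 genes (61.9%).

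**Figure D2:**
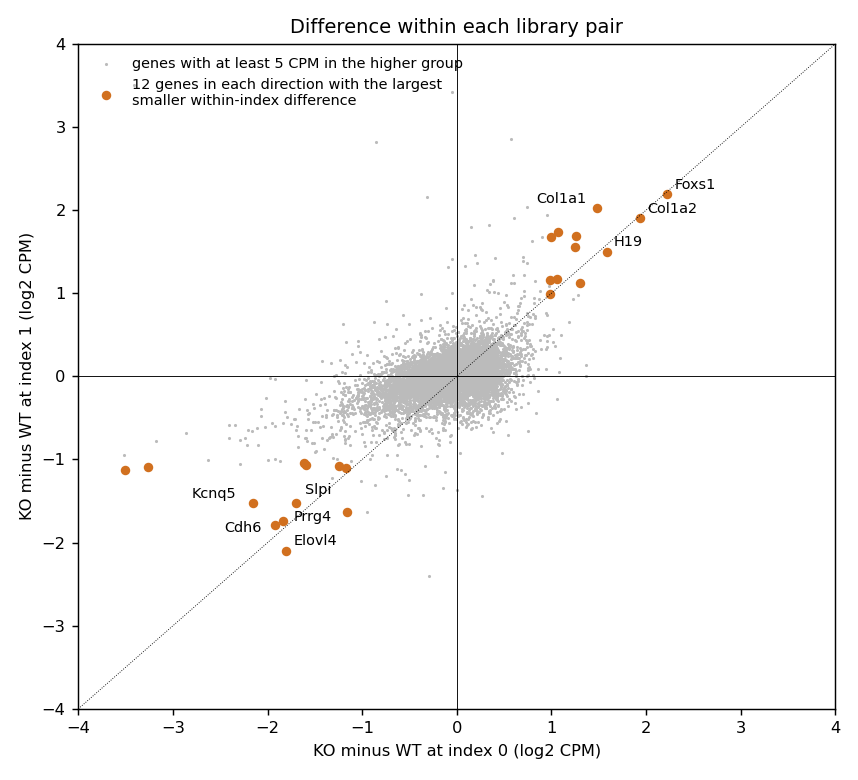
Log2 CPM difference of KO from WT at index 0 (x axis) and at index 1 (y axis) for the 9997 genes with at least 5 CPM in the higher group, with the 12 genes in each direction whose smaller within-index difference was largest in orange. Foxs1 and Col1a2 lie at the upper right and Elovl4, Cdh6, Prrg4 and Kcnq5 at the lower left, close to the dotted line of equal differences except for Kcnq5.

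Sirt1 itself was at 62.2 and 66.8 CPM in WT against 33.8 and 46.9 CPM in KO. Both KO libraries lay below both WT libraries, with a log2 difference of −0.68 (SE 0.24) that was −0.88 at index 0 and −0.51 at index 1. A count over the whole gene does not isolate exon 4, so this level checks the labels only in part. Among the other sirtuins, Sirt2 and Sirt3 showed no such separation by genotype. Sirt2, mainly cytoplasmic, was at 58.1 and 75.1 CPM in WT against 64.6 and 81.8 CPM in KO. The mitochondrial Sirt3 was at 9.02 and 9.99 CPM in WT against 8.39 and 9.88 CPM in KO. Among 19 tested genes of sirtuins and NAD metabolism the median log2 difference was 0.05, beside 0.02 over all genes tested. Of these 19, 2 genes were apart upward and 1 downward, beside 11.8% and 11.1% of all genes.

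The myoblast identity of the cultures was present in every library. Myod1, the leading regulator of myoblasts, was at 2104 and 1931 CPM in WT against 2389 and 1837 CPM in KO, so the genotypes overlapped. Myog was low, at 10.2 and 0.377 CPM in WT against 12.1 and 0.693 CPM in KO, and differed far more between indices than between genotypes. Pax7 was at 102 and 103 CPM in WT against 84.5 and 66.7 CPM in KO, both KO libraries being lower (log2 −0.44, SE 0.21). The KO mice carry the Pax7cre/+ knock-in, so for this gene the knock-in and the loss of SIRT1 cannot be told apart. Myf5 was at 146 and 73.0 CPM in WT against 77.1 and 67.5 CPM in KO (−0.60). KO was the lower library at each index for Myf5, but the genotypes overlapped. Megf10, a receptor of satellite cells, was at 201 and 137 CPM in WT against 119 and 105 CPM in KO (−0.60), and Vcam1, an adhesion molecule of the same cells, at 117 and 119 against 98.9 and 114 CPM. Both KO libraries were below both WT libraries for these 2 genes. Itga7, the laminin-binding integrin of muscle, lay the other way, at 624 and 780 CPM in WT against 878 and 784 CPM in KO. The muscle intermediate filament gene Des was at 358 and 714 CPM in WT against 600 and 912 CPM in KO, and was higher in KO at each index. Among the 10 satellite cell and myoblast markers 6 estimates were above 0 and 4 below. Of these 10, 1 gene was apart upward and 3 downward, beside 11.8% and 11.1% of all genes. Over the 38 tested genes of muscle differentiation and contraction the median was 0.14, with 0.19 at index 0 and −0.03 at index 1, and 25 estimates were above 0. In that list 0 genes were apart upward and 3 downward, beside 11.8% and 11.1% of all genes. With an offset for transcript length, described below, 0 were apart in either direction, beside 11.1% upward and 10.7% downward of all genes.

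Genes with lower levels in KO at both indices were led by a fatty acid elongase, a cadherin, a potassium channel subunit and a vitamin K related membrane protein. Elovl4, which elongates very long chain fatty acids, was at 20.2 and 20.2 CPM in WT against 5.77 and 4.71 CPM in KO. The WT libraries were equal and the KO libraries were both far lower, with a log2 difference of −1.95 (SE 0.26; −1.80 and −2.10 at the indices). Cdh6, a cell adhesion cadherin, was at 13.9 and 8.37 CPM in WT against 3.65 and 2.40 CPM in KO (−1.88, SE 0.42). Kcnq5, which forms voltage-gated potassium channels, was at 27.6 and 18.6 CPM in WT against 6.19 and 6.47 CPM in KO (−1.87, SE 0.30). Prrg4, a membrane protein with a Gla domain, was at 10.6 and 17.4 CPM in WT against 2.95 and 5.20 CPM in KO (−1.78, SE 0.44). None of these 4 genes overlapped between genotypes. In both genotypes Cdh6 was higher at index 0 and Prrg4 at index 1.

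The 250 bases before the annotated start of 2 of these genes are shown with those of 2 genes higher in KO, chosen as the named genes with the largest smaller within-index difference in each direction among those with 1 window in the table, as the sequence nearest the start of genes on which the results turn. They come from RefSeq on GRCm38.p6, whereas the submitters' processing notes name mm9, and each runs 5′ to 3′ on the gene's strand. Capitals mark matches to the E-box CANNTG, the class of site that Myod1 and Myf5 bind, which reads the same on both strands. Elovl4 lies on the minus strand (chr9:83806306-83806555), Cdh6 on the minus strand (chr15:13173676-13173925), Col1a2 on the plus strand (chr6:4505368-4505617) and Pcolce on the minus strand (chr5:137611405-137611654).
Elovl4: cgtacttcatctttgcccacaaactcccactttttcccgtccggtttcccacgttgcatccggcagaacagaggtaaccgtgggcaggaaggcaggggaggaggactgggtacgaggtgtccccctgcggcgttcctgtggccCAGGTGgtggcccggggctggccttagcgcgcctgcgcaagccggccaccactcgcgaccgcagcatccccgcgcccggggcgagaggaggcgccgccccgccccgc
Cdh6: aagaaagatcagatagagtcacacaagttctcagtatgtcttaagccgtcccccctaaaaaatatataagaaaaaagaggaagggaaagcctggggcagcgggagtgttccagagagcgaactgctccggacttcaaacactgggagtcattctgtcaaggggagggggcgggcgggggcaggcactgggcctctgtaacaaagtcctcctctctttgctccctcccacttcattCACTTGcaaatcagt
Col1a2: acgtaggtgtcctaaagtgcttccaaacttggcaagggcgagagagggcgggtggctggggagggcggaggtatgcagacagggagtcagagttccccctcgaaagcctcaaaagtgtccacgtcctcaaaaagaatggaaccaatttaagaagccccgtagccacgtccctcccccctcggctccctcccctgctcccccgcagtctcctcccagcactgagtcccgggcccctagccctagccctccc
Pcolce: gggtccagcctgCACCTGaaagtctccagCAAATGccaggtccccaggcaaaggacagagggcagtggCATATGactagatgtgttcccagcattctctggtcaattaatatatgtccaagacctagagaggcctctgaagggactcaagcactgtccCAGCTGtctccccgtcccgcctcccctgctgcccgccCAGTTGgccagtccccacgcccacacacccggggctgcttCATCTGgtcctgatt
Elovl4 and Cdh6 held 1 E-box match each, Col1a2 held 0 and Pcolce held 6. Among 32851 windows of the same length 66.2% held at least 1 match. The GC box GGGCGG, searched on both strands, was found 2 times each in Elovl4, Cdh6 and Col1a2 and 1 time in Pcolce, and in 32.7% of all windows. CCAAT, also searched on both strands, had 1 match in Col1a2 and 0 in the other 3 windows, against 33.8% of windows with a match, and TATAAA had 0 matches in these 4 windows and a match in 12.4% of all. None of the 4 motifs contains another, and a match is a description of the sequence only.

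None of the other tested elongase genes lay below WT in both KO libraries. On the FPKM scale, which allows levels of different genes to be compared, Elovl4 was at 6.91 and 6.98 in WT and 2.02 and 1.61 in KO. Elovl1, an elongase of saturated and monounsaturated very long chains, was at 54.2 and 42.4 FPKM in WT against 67.7 and 55.8 FPKM in KO. Elovl5, which elongates polyunsaturated chains, was at 29.8 and 29.4 FPKM in WT against 29.6 and 35.9 FPKM in KO. Elovl1 was thus higher in KO at each index and Elovl5 overlapped. Over 19 tested genes of fatty acid elongation and desaturation the median log2 difference was 0.04. Of these 19, 1 gene was apart upward and 2 downward, beside 11.8% and 11.1% of all genes. The median over 22 tested sterol synthesis genes was also 0.04.

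Adhesion genes lay on both sides of WT. Gja1, which encodes connexin 43 of gap junctions, was at 189 and 139 CPM in WT against 96.2 and 95.1 CPM in KO (−0.78, SE 0.23). Cdh2, N-cadherin, was at 185 and 136 CPM in WT against 124 and 99.9 CPM in KO (−0.52). Both genes were lower in the 2 KO libraries than in either WT library. Itga6, a laminin receptor subunit, was at 42.5 and 103 CPM in WT against 18.9 and 47.7 CPM in KO, with nearly equal differences at the indices (−1.17 and −1.11) although the genotypes overlapped. Itga2, a collagen receptor subunit, was at 2.36 and 2.14 CPM in WT against 0.663 and 0.849 CPM in KO. Itga3, another laminin receptor subunit, lay higher in KO, at 51.3 and 35.9 CPM in WT against 91.2 and 59.5 CPM in KO (0.79). Among 26 tested genes of cadherins, gap junctions and integrins 6 were apart upward and 5 downward, with a median of 0.10. The shares over all genes were 11.8% and 11.1%.

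Regulators of growth and of the cell cycle included further genes with lower levels in KO. Cdk6, a G1 kinase that pairs with D cyclins, was at 18.2 and 22.6 CPM in WT against 7.32 and 11.4 CPM in KO (−1.12, SE 0.33), with no overlap. Its paralog Cdk4 was more abundant and was higher in KO at each index, at 617 and 453 CPM in WT against 667 and 488 CPM in KO. Ccnd1, a cyclin that binds both kinases, was at 2046 and 1686 CPM in WT against 1903 and 1705 CPM in KO, and Cdkn1a, the p21 inhibitor, at 242 and 281 against 305 and 305 CPM. Over 16 tested G1 cyclins, kinases and inhibitors the median was 0.05. Of these 16, 2 genes were apart in each direction, beside 11.8% upward and 11.1% downward of all genes. Bmpr2, a type II receptor for bone morphogenetic proteins, was at 28.7 and 36.9 CPM in WT against 6.16 and 20.8 CPM in KO (−1.29). Ctgf, a matrix-associated growth factor gene, was higher, at 60.2 and 37.3 CPM in WT against 79.8 and 99.8 CPM in KO (0.88). The DNA-binding proteins Pou2f1 (10.3 and 11.4 against 1.05 and 5.32 CPM) and Zbtb20 (9.06 and 13.2 against 4.96 and 5.33 CPM) were lower in both KO libraries, as was the kinase Hipk2 (17.4 and 19.5 against 9.26 and 11.2 CPM). Purb, a single-strand DNA binding protein, was at 36.9 and 50.0 CPM in WT against 12.2 and 23.9 CPM in KO, and the nuclear receptor corepressor Lcor at 5.27 and 5.70 against 1.70 and 2.75 CPM. For these 5 genes the genotypes did not overlap.

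Ptgr1, a prostaglandin and leukotriene reductase, had nearly equal levels within each genotype, at 416 and 417 CPM in WT against 229 and 240 CPM in KO (−0.83, SE 0.20). Ptgr1 stands in the list of NRF2 targets and detoxification genes. Txnrd1, thioredoxin reductase, was at 835 and 1139 CPM in WT against 653 and 951 CPM in KO. Hmox1, heme oxygenase, was at 233 and 1215 CPM in WT against 225 and 1216 CPM in KO, so that the indices differed and the genotypes did not separate. Over the 32 tested genes of the list 4 were apart upward and 2 downward, beside 11.8% and 11.1% of all genes, and the median was −0.03. Among the remaining genes with lower levels in KO at both indices, Slpi, a protease inhibitor, was at 2.26 and 11.7 CPM in WT against 0.676 and 4.06 CPM in KO, and the alcohol dehydrogenase Adh7 at 1.35 and 10.3 against 0.552 and 4.85 CPM. Cacna1d, an L-type calcium channel subunit, was at 2.78 and 13.0 CPM in WT against 1.23 and 4.20 CPM in KO. These 3 genes overlapped between genotypes because the index difference was larger than the genotype difference, and the estimates of Slpi and Adh7 turned above 0 without WT index 1 (0.072 and 1.01). Leaving out 1 library leaves the indices unequal between the genotypes. Such an estimate, here and below, therefore also takes in the index difference. Nav3, which encodes a neuron navigator protein, was at 17.3 and 15.2 against 5.38 and 9.22 CPM.

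**Figure D3:**
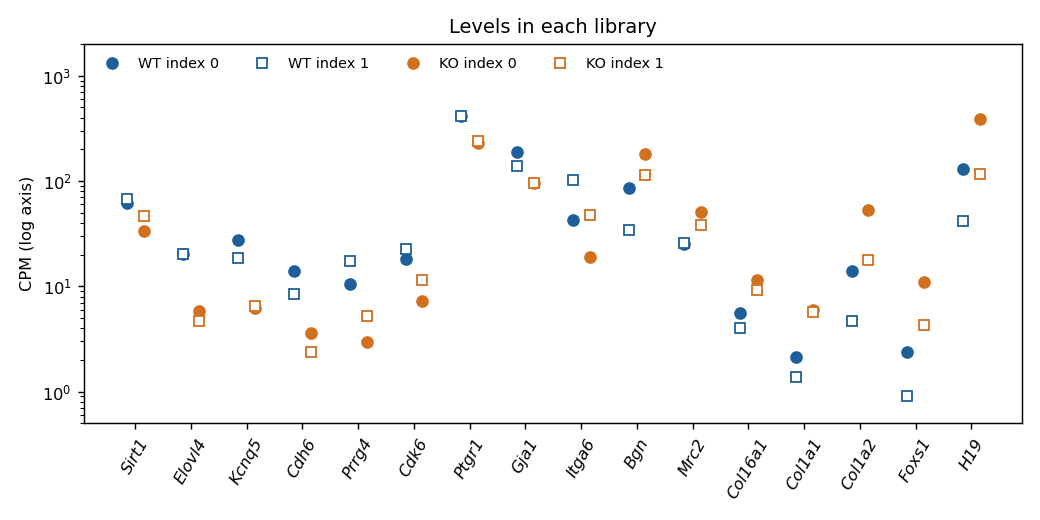
CPM (log axis) in each of the 4 libraries for Sirt1, 8 genes with lower levels in KO and 7 genes with higher levels in KO (x axis), with WT in blue, KO in orange, index 0 filled and index 1 open. The KO points of Elovl4, at 5.77 and 4.71 CPM, lie well below the WT points at 20.2 and 20.2 CPM, and the KO points of H19, at 387 and 117 CPM, fall on both sides of WT index 0 at 129 CPM.

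Genes with higher levels in KO at both indices included collagen and matrix genes beside the transcription factor gene Foxs1 and the noncoding RNA H19, which are described further on. Col1a2, a chain of type I collagen, was at 13.9 and 4.70 CPM in WT against 53.1 and 17.7 CPM in KO, with almost the same log2 difference at the indices (1.93 and 1.91; 1.93 over the 4 libraries, SE 0.74). Col1a1, the partner chain, was at 2.11 and 1.38 CPM in WT against 5.96 and 5.67 CPM in KO (1.74, SE 0.40). Col16a1, a fibril-associated collagen, was at 5.56 and 4.04 CPM in WT against 11.6 and 9.15 CPM in KO (1.11). For all 3 genes both KO libraries lay above both WT libraries. Col1a1 was nonetheless a minor collagen, at 0.453 and 0.299 FPKM in WT against 1.30 and 1.21 FPKM in KO, whereas Col5a2 was at 104 and 79.5 FPKM in WT against 113 and 83.5 FPKM in KO. Col3a1, at 31.9 and 11.7 FPKM in WT against 34.0 and 13.4 FPKM in KO, differed mostly between the indices. Among 11 tested fibrillar collagens 3 were apart upward and 1 downward (median 0.11), and among 13 other collagens 3 and 0 (median 0.29). The shares over all genes were 11.8% and 11.1%.

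The list of collagen processing and matrix turnover had 22 of 23 tested genes with an estimate above 0, beside 7429 of 13963 over all genes, and a median log2 difference of 0.41 (0.40 at index 0 and 0.50 at index 1). In that list 8 genes were apart upward and 0 downward, beside 11.8% and 11.1% of all genes, and the median was 0.25 without KO index 1. Plod1, a lysyl hydroxylase of procollagen, was at 32.1 and 41.2 CPM in WT against 46.7 and 59.6 CPM in KO (0.54), and Plod3, of the same family, at 114 and 113 against 155 and 125 CPM. Mrc2, an endocytic receptor for collagen, was at 25.4 and 25.9 CPM in WT against 51.2 and 38.5 CPM in KO (0.81, SE 0.23). Both hydroxylases and the receptor were higher in each KO library than in either WT library. Pcolce, an enhancer of procollagen cleavage, was at 3.54 and 1.29 CPM in WT against 8.52 and 4.22 CPM in KO (1.40), and the matrix protease Mmp3 at 0.154 and 0.974 against 2.28 and 6.26 CPM. Mmp9, a gelatinase, was at 4.88 and 0.280 CPM in WT against 9.68 and 0.658 CPM in KO, with a larger difference between indices than between genotypes and an estimate of −1.97 without KO index 0.

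Secreted matrix proteins beside the collagens included Bgn, the proteoglycan biglycan, at 86.0 and 34.1 CPM in WT against 180 and 113 CPM in KO (1.29, SE 0.51), with no overlap. Fbln2, a fibulin of elastic fibres and basement membranes, was at 48.0 and 69.6 CPM in WT against 78.5 and 109 CPM in KO (0.67). Htra1, a secreted serine protease, was at 2.36 and 9.55 CPM in WT against 5.66 and 28.1 CPM in KO (1.50), so it was higher at each index while the genotypes overlapped, and its estimate was −0.075 without KO index 1. The matrix genes Sned1 and Vcan lay the other way. Sned1 was at 8.41 and 14.5 CPM in WT against 4.33 and 4.65 CPM in KO (−1.35), and Vcan, the large proteoglycan versican, at 54.6 and 81.0 against 21.6 and 48.8 CPM (−0.95). Over 29 tested matrix glycoproteins and proteoglycans 6 genes were apart upward and 3 downward, beside 11.8% and 11.1% of all genes, with a median of 0.18.

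Fibroblast markers lay in the same direction as these matrix genes, and several genes stand in both lists. Of 16 markers 13 were tested, 12 estimates were above 0, and the median was 1.52 (0.69 at index 0 and 1.67 at index 1). It was 0.62 without KO index 1 and 0.30 on the log2(FPKM + 1) scale. Beside 11.8% and 11.1% of all genes, 4 of the 13 were apart upward and 0 downward: Col1a1, Col1a2, the chemokine Cxcl14 (0.756 and 0.718 against 1.39 and 2.83 CPM) and the transcription factor Twist2 (0.256 and 0.195 against 0.428 and 0.550 CPM). Pdgfra, the receptor that marks mesenchymal progenitors of muscle, was at 0.256 and 0.828 CPM in WT against 0.552 and 3.18 CPM in KO, and Dcn, decorin, at 0.769 and 4.83 against 1.56 and 15.4 CPM, with an estimate of −0.85 without KO index 1. The summed level of the list was 225 and 99.4 CPM in WT against 282 and 154 CPM in KO, with Col3a1 as the largest part. Tcf21 had 0 fragments in all 4 libraries, and Pi16 had 1 and 0 fragments in WT and 4 and 3 in KO. In such bulk samples more cells of a type and more RNA per cell cannot be told apart, and the part of other cell types in the matrix result was not tested. Markers of pericytes and smooth muscle were above 0 for 7 of 7 tested genes (median 0.62), with 3 apart upward, Cnn1, Pdgfrb and Tagln. Their summed level was 117 and 60.2 CPM in WT against 141 and 137 CPM in KO. Tagln, an actin-binding protein of smooth muscle, was at 16.6 and 16.8 CPM in WT against 18.9 and 46.4 CPM in KO, so only KO index 1 stood clear of WT. The 7 tested markers of macrophages and leukocytes had a median of 0.43, were apart in 0 cases and summed to 12.3 to 17.0 CPM, and those of lymphocytes, erythroid cells and adipocytes to at most 4.64 CPM in any library.

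**Figure D4:**
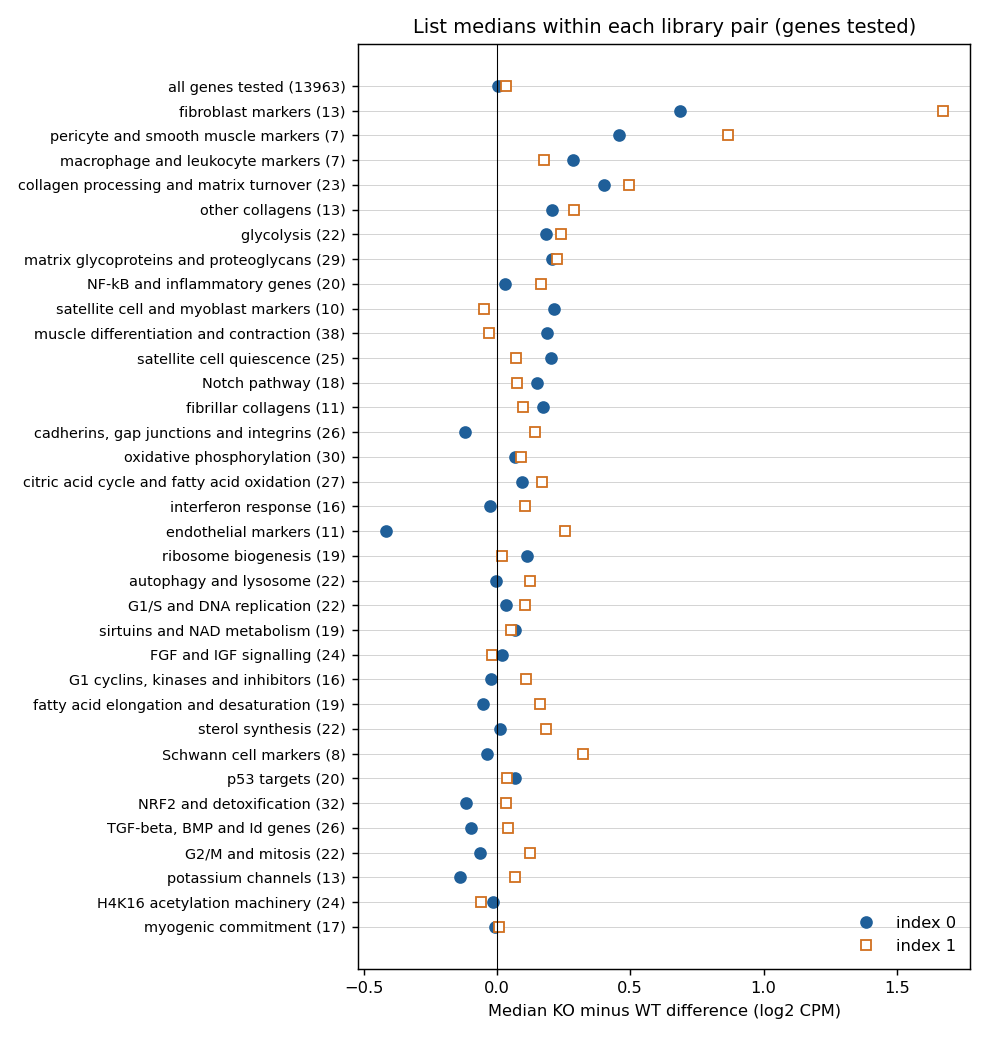
Median log2 CPM difference of KO from WT at index 0 (filled) and at index 1 (open) for each gene list with at least 5 tested genes (y axis, number of tested genes in brackets), and for all genes tested on the top line. The fibroblast markers, at 0.69 and 1.67, and the collagen processing genes, at 0.40 and 0.50, lie to the right of 0 at both indices, while all genes lie at 0.00 and 0.03.

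Signalling and regulatory genes with higher levels included Foxs1, a forkhead transcription factor, at 2.36 and 0.913 CPM in WT against 11.1 and 4.26 CPM in KO (2.23, SE 0.71; 2.22 and 2.19 at the indices). H19, an imprinted noncoding RNA, was at 129 and 41.4 CPM in WT against 387 and 117 CPM in KO, with log2 differences of 1.58 and 1.50 at the indices. H19 overlapped between genotypes, because WT index 0 lay above KO index 1. Its imprinted neighbour Igf2, a growth factor, was at 10.2 and 8.92 CPM in WT against 17.2 and 14.7 CPM in KO (0.74), and whether the counting used strand is not stated. Igfbp4, which binds insulin-like growth factors, was at 13.6 and 12 CPM in WT against 26.5 and 20.0 CPM in KO (0.86). Igf2 and Igfbp4 were both higher in each KO library than in either WT library. Hic1, a transcriptional repressor, was at 2.73 and 3.14 CPM in WT against 6.65 and 6.20 CPM in KO, and Sox10, a neural crest and Schwann cell factor, at 1.60 and 3.43 against 3.98 and 7.53 CPM. Sox10 was the 1 gene apart upward among 8 Schwann cell markers, beside 11.8% of all genes, and their median was 0.03.

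Among abundant genes with higher levels, S100a4, a calcium-binding protein, was at 179 and 143 CPM in WT against 383 and 203 CPM in KO (0.87). Plau, the urokinase plasminogen activator, was at 107 and 96.5 CPM in WT against 154 and 140 CPM in KO (0.53). Rhoc, a small GTPase of the cytoskeleton, was at 92.4 and 71.1 CPM in WT against 137 and 101 CPM in KO, and Micall2, a Rab effector at cell junctions, at 35.7 and 33.3 against 59.5 and 49.1 CPM. None of these 4 genes overlapped between genotypes. Lower in level were Prg4, lubricin (3.77 and 2.92 against 6.31 and 7.54 CPM), Clip3 (8.21 and 8.63 against 13.8 and 14.6 CPM) and Tmem176a (6.97 and 5.93 against 11.2 and 11.4 CPM). Npcd (16.1 and 13.0 against 28.6 and 28.9 CPM) and Rsc1a1 (9.28 and 8.28 against 15.1 and 19.3 CPM) overlap other genes, so their counts are uncertain.

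Glycolytic genes had small differences, most of them upward in KO. Of 22 tested genes 18 estimates were above 0, and the median was 0.20 (0.19 at index 0 and 0.24 at index 1). Beside 11.8% and 11.1% of all genes, 5 genes were apart upward and 0 downward. Without single libraries the median ranged from −0.023 (without WT index 1) to 0.47. Those 5 were the hexokinase Hk1 (157 and 193 against 194 and 229 CPM), the phosphofructokinases Pfkl (202 and 196 against 271 and 242 CPM), Pfkm (20.9 and 21.5 against 26.7 and 25.7 CPM) and Pfkp (74.5 and 77.1 against 82.8 and 84.1 CPM), and the lactate exporter Slc16a3 (88.0 and 79.4 against 99.5 and 92.4 CPM). With an offset for transcript length, described below, 5 genes of the list were apart upward and 1 downward. The shares of all genes with the offset were 11.1% and 10.7%. The most abundant members, Pkm2 (pyruvate kinase; 3947 and 2918 against 4964 and 3320 CPM) and Ldha (lactate dehydrogenase; 2574 and 1478 against 2781 and 1796 CPM), were higher in KO at each index and overlapped between genotypes. Oxidative phosphorylation had 25 of 30 estimates above 0 with a median of 0.09 and 0 genes apart in either direction. With an offset for transcript length, described below, 16 of 30 were above 0. By that measure 3 were apart downward, beside 10.7% of all genes with the offset. The citric acid cycle and fatty acid oxidation had 23 of 27 above 0, a median of 0.09, and 4 genes apart upward, among them Acadvl (59.6 and 60.3 against 74.1 and 71.5 CPM) and Hadha (143 and 131 against 177 and 154 CPM), both of mitochondrial beta oxidation. With the offset this list had 17 of 27 above 0 and a median of 0.057. Over all genes tested 7429 of 13963 were above 0 without the offset and 7422 with it.

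The enzymes and readers of histone H4 lysine 16 acetylation had a median of −0.05 over 24 tested genes, with 0 apart upward and 3 downward, a share near the 11.1% of all genes. With an offset for transcript length, described below, the median was 0.035, 14 genes were above 0 and 6 were apart downward. Those 6 made up 25% of the list, beside 10.7% of all genes with the offset. The 3 genes apart downward without the offset were the acetyltransferase Ep300 (105 and 127 CPM in WT against 64.9 and 97.2 CPM in KO), the corepressor Ncor1 (242 and 290 against 184 and 224 CPM) and Msl2, a subunit of the MSL acetyltransferase complex (76.4 and 80.9 against 58.3 and 73.6 CPM). Crebbp, the paralog of Ep300, was lower in KO at each index but overlapped between genotypes (50.7 and 72.0 against 34.9 and 50.7 CPM). Ep300, Ncor1 and Crebbp belong to the longest of 10 classes of transcript length, whose differences are given next.

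Differences between genotypes followed transcript length. Relative length was taken from the ratio of fragments to FPKM, and the tested genes were cut into 10 classes of equal size. The median log2 difference was 0.09 in the shortest class and −0.24 in the longest, where it was −0.32 at index 0 and −0.19 at index 1. Genes with both KO libraries below both WT libraries made up 5.52% of the shortest class and 27.3% of the longest, and genes with both above 13.5% and 3.36%. Spearman's correlation of the log2 difference with length was −0.31 across 13963 genes, which share the 4 libraries and are not independent. The difference between the indices followed length as well, over a wider range: index 1 against index 0 had a median of −0.31 in WT and −0.29 in KO in the shortest class and of 0.19 and 0.36 in the longest (Spearman's correlation 0.21 and 0.24). With a smooth offset for length in the fit, added after the data were seen, Ahnak, a giant scaffold protein, went from −0.55 to −0.04 (604 and 595 CPM in WT, 416 and 405 CPM in KO). The cytoskeletal linker Dst went from −0.63 to −0.08, the ribosome assembly factor Mdn1 from −0.70 to −0.16, and the histone methyltransferase Mll1 from −0.67 to −0.17. Ep300 went from −0.52 to −0.24, Crebbp from −0.52 to −0.28 and Ncor1 from −0.38 to −0.08. Prrc2c was at −0.64 without and −0.29 with the offset, the cohesin loader Nipbl at −0.72 and −0.45, and the nuclear RNA Malat1 at −1.09 and −0.84. Vcan and Megf10, also in the longest class, were at −0.67 and −0.35 with the offset. Among the leading genes Kcnq5, in the longest class, was at −1.67 with the offset and −1.87 without it, and Nav3 at −0.94 and −1.15. With the offset Elovl4 was at −1.94, Cdh6 at −1.90, Prrg4 at −1.79, Cdk6 at −1.16, Col1a2 at 2.08 and Foxs1 at 2.15. With it the list medians were 1.45 for fibroblast markers, 0.36 for collagen processing, 0.16 for glycolysis and 0.01 for oxidative phosphorylation. Lists of longer genes had higher medians than without it, 0.57 against 0.29 for other collagens, 0.32 against 0.11 for fibrillar collagens, 0.34 against 0.18 for matrix glycoproteins and proteoglycans, and 0.24 against 0.10 for cadherins, gap junctions and integrins. The median of pericyte and smooth muscle markers was 0.90 against 0.62. The cause of the length pattern was not tested.

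**Figure D5:**
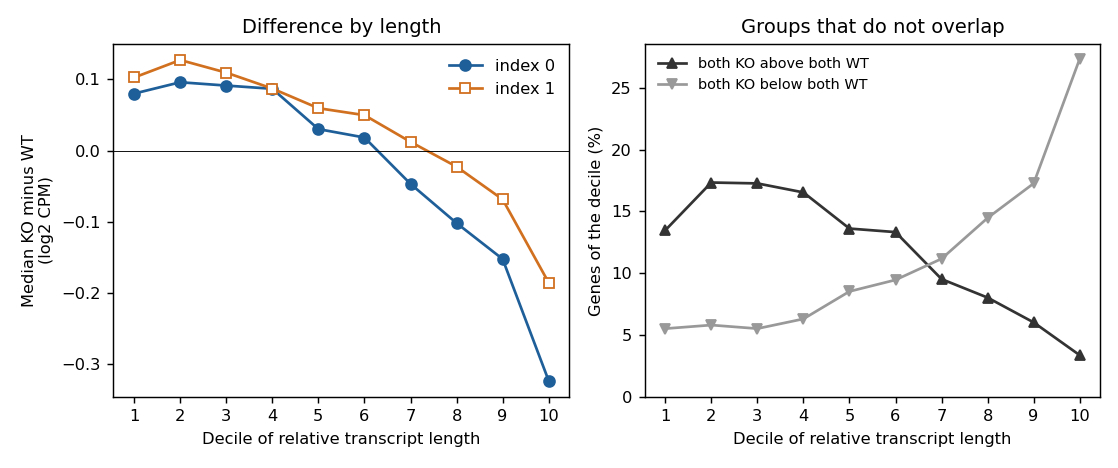
Left, median log2 CPM difference of KO from WT at index 0 (filled) and index 1 (open) in 10 classes of relative transcript length (x axis, shortest to longest). Right, percentage of each class with both KO libraries above or below both WT libraries. The medians end at −0.32 and −0.19 in the longest class, where 27.3% of genes were below.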

How the data were processed

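Satellite cells of WT and SIRT1mKO mice in proliferating culture were measured by polyA RNA-seq, 2 libraries per genotype, in 1 of 4 deposited tables. That table's conditions are named WT and Sirt1KO and were matched to the proliferating groups because the other conditions were accounted for. Per the file headers, the authors' Cuffdiff run gave estimated counts (raw fragments) and FPKM per gene and library. Bowtie, TopHat, SICER, Cuffdiff and the build mm9 stand in the submitters' processing notes, without roles and with no versions. Between 1.45% and 1.70% of the counts were not whole (tolerance 0.01), and counts were rounded. Depth was 75564697 to 82450560 fragments, and genes under 1 CPM rest on few of them, such as Mmp3 with 12 fragments in WT index 0. The table held 22552 genes, 12 with a status other than OK were left out, and columns of samples left unused numbered 0. The 2 libraries of a genotype differed by a chi-square of 305 (WT) and 341 (KO) per degree of freedom, so none was a copy of another.

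Genotypes were compared with edgeR 4.0.16 in R 4.3.3 (robust quasi-likelihood test after filterByExpr and TMM scaling, Benjamini-Hochberg adjustment over all genes tested, threshold 0.05). CPM come from TMM-scaled libraries, and single-library log2 values use a prior count of 2. Alternatives were DESeq2 1.42.0, RLE factors, no filter, limma 3.58.1 on log2(FPKM + 1) and log2(FPKM + 0.1), a block for the index, and leaving out each library. An offset for relative length (a lowess curve of span 0.3 in each library) was added after the data were seen. The scripts were tested on simulated counts. Named genes are Sirt1, Pax7, Myf5, Myod1 and Myog, members of 37 gene lists, up to 12 genes per direction of lowest p whose groups did not overlap, with at least 5 CPM, up to 12 with the largest smaller within-index difference, and up to 8 of the most abundant with both differences at least 0.5. Predicted genes were passed over, a few genes that met the rule are left out of the text, and Xist and 4 Y-linked genes served as a check of the libraries. The members and lists were chosen with earlier results of these data known. Some listed symbols (18) were matched through RefSeq synonyms, and 2 were not matched. Lists of endothelial, NF-kB, interferon, Notch, FGF and IGF, TGF-beta, p53, autophagy, ribosome biogenesis, quiescence, myogenic commitment, potassium channel, G1/S and G2/M genes had medians between −0.05 and 0.17 over the 4 libraries. The endothelial median was −0.42 at index 0 and 0.25 at index 1. Of 20 NF-kB genes 5 were apart upward and 1 downward, beside 11.8% and 11.1% of all genes. With the length offset 8 of 24 FGF and IGF genes were apart upward and 3 downward, beside 11.1% and 10.7%. Lists of 1 or 2 tested genes are given only as sums. Counts of genes with near-identical copies are uncertain.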

Additional observations from a re-analysis of the deposited data

How the results depend on the processing

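The count of called genes was 0 with RLE factors, without a filter on low counts, with limma on either FPKM scale, with the length offset alone, and without each library in turn, where 104 to 670 genes had an unadjusted p under 0.05 (670 without KO index 1). DESeq2 called 3 genes, Elovl4, Kcnq5 and H2-T24, all lower in KO; H2-T24 belongs to a multigene family and is named after its values were seen. The index is a number of the table, and nothing in the labels says that it pairs the libraries. Deviations of libraries with the same index correlated at 0.732. With the index as a block, edgeR called 3 genes (Col1a2 and H19 higher, Elovl4 lower; lowest adjusted p = 0.0376) and DESeq2 called 390, of which 72 were higher and 318 lower. With the block and the length offset edgeR called 6 (Col1a2, H19 and Foxs1 higher, Elovl4, Cdh6 and Prrg4 lower).

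The fibroblast median of 1.52 was 0.30 with limma on log2(FPKM + 1), 0.88 on log2(FPKM + 0.1), 1.17 with DESeq2 and the block, and 0.62 to 1.35 without single libraries, lowest without KO index 1. The collagen processing median of 0.41 was 0.29 with limma on log2(FPKM + 1) and 0.25 to 0.48 without single libraries. The glycolysis median was −0.023 to 0.47 without single libraries.

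Leaving out single libraries turned the direction of these genes, with the lowest and highest values in turn: Adh7 −3.40 and 1.01, Ccnd1 −0.18 and 0.088, Cdh15 −0.041 and 0.85, Cdk4 −0.15 and 0.34, Col3a1 −0.70 and 1.02, Col5a2 −0.13 and 0.30, Dcn −0.85 and 3.46, Elovl5 −0.014 and 0.28, Hmox1 −1.69 and 1.63, Htra1 −0.075 and 2.84, Ldha −0.19 and 0.62, Mmp9 −1.97 and 4.21, Myod1 −0.15 and 0.24, Myog −2.94 and 4.09, Pkm2 −0.064 and 0.53, Sirt2 −0.050 and 0.33, Sirt3 −0.18 and 0.036, Slpi −3.36 and 0.072. With the length offset Ccnd1 was 0.0024 and Myod1 −0.0058, and with the offset and the block Ccnd1 was 0.0050 and Myod1 −0.016. The cause of these turns was not tested. Leaving out 1 library leaves the indices unequal between the genotypes, so such estimates also take in the index difference. Values under 1 CPM, such as those of Mmp3, Twist2 and Pdgfra, carry more counting error than the others.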
